A study of Mus musculus with 8 samples.

Results

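The genes described here encode the enzymes and transporters of glycolysis and of glycogen synthesis and breakdown. Of 33 genes on the list, 30 had at least 1 probe set to which the platform annotation gave exactly 1 gene symbol, 59 probe sets in all out of 22690 on the array. Gpi1, Pfkfb1 and Eno1 had none and are not analysed here. RNA came from the diaphragm, the sheet of muscle that drives breathing, in mice aged 8 weeks. The 4 normal pools came from control mice for the dy/dy strain, and the 4 dystrophic pools from dy/dy mice, which have a muscular dystrophy with a deficiency of laminin in the basement membrane around the fibres. The labels do not name the genetic background, sex or genotype of the controls. Each pool held muscle of 3 mice and was hybridised to 1 Affymetrix array, so that 12 mice stand behind each group and single animals cannot be told apart.

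Glycolysis splits glucose into pyruvate in the cytosol and yields ATP without oxygen. Muscle fibres feed it from the blood through hexokinase, or from stored glycogen through phosphorylase, and fast fibres rely on it most. Many of its steps are catalysed by isoenzymes from separate genes, of which one is enriched in muscle and another is found widely or in other organs.

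None of these genes passed the test. Signals are MAS5 intensities rescaled to a common trimmed mean, and each log2 difference subtracts the normal from the dystrophic mean of log2(signal + 16). Of the 30 genes, 29 had a probe set above the lowest 40% in mean signal and were tested, and Gapdh, measured here only by control probe sets, was not. limma called 0 of the 29 at an adjusted p of 0.05 over 13575 probe sets, of which 0.494% were called (67, with 62 higher and 5 lower). At an unadjusted p under 0.05 there were 4 of 29, with Hk1 higher and Pgk1, Gyg and Ppp1r3c lower, against 5.60% of all tested probe sets higher and 4.13% lower. The groups did not overlap for 1 of 29 genes, Hk1, higher in dystrophic pools, against 3.87% of all tested probe sets in that direction. For every one of the 29 the unadjusted 95% interval lay within a 2-fold change in either direction, and for 15 it lay within 1.5-fold.

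As a group the genes lay slightly lower in dystrophic diaphragm. Differences were below 0 for 23 of 29 genes and above 0 for 6, with a median of -0.19, a lowest value of -0.55 (Ppp1r3c) and a highest of 0.51 (Hk1). Over all tested probe sets the median was -0.01 and 52.3% lay below 0. The members were bright. Their median probe set stood at the 96.4th percentile of mean signal, and 10 stood at or above the 99th. The 822 tested probe sets at least as bright as the median member, a comparison chosen after values were seen, had a median of -0.10 and 69.2% below 0. The members' median was -0.11 without normal replicate 4 or without dystrophic replicate 3, and -0.07 without both. It was -0.10 under quantile normalization and -0.11 on the values as deposited.

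**Figure D1:**
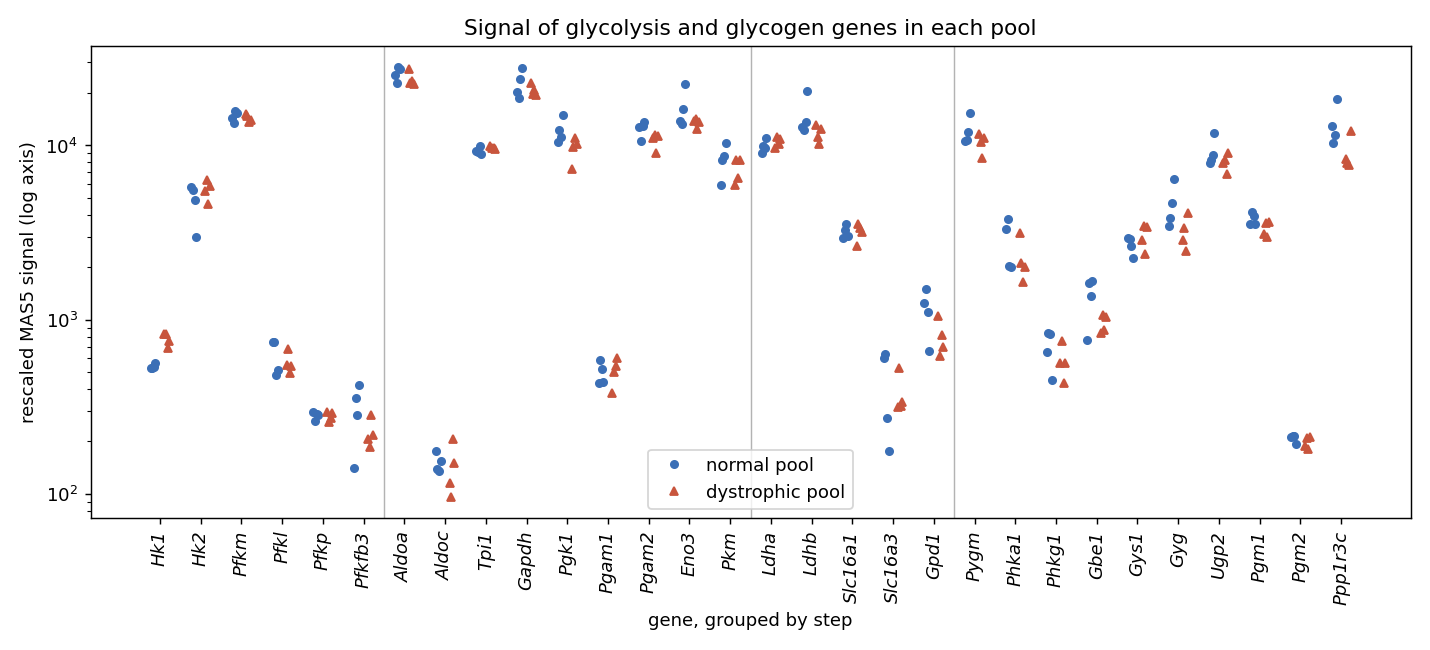
Rescaled MAS5 signal (log axis) of the representative probe set of 30 genes in each of the 4 normal pools (circles) and 4 dystrophic pools (triangles), with vertical lines between the hexose entry, aldolase-to-pyruvate, lactate and glycerol phosphate, and glycogen groups. Hk1 is the gene whose groups are apart, with normal pools at 525 to 567 and dystrophic pools at 687 to 830.

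**Figure D2:**
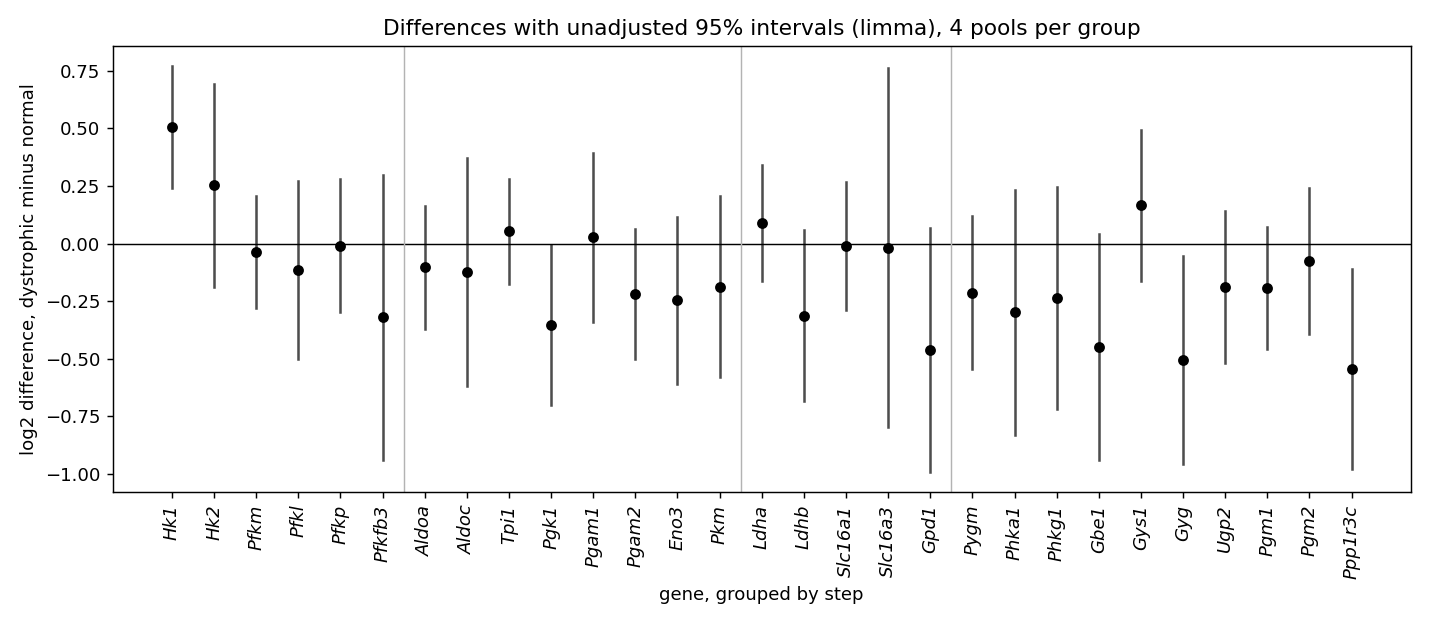
Log2 difference, dystrophic minus normal, for the 29 tested genes (points) with unadjusted 95% limma intervals (lines), 4 pools per group. The points lie between -0.55 and 0.51, and 23 of 29 are below 0.

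Normal replicate 4 and dystrophic replicate 3 stood at opposite ends for many of these genes. Normal replicate 4 was the highest of the 8 arrays for 11 of 29 genes, among them Eno3, Ldhb, Pygm, Gyg, Ugp2 and Ppp1r3c, and the lowest for 4, Hk2, Tpi1, Slc16a3 and Gys1. Dystrophic replicate 3 was the lowest array for 11 of 29. The median deviation of the members from their own mean over 8 arrays was 0.08 in normal replicate 4 and -0.20 in dystrophic replicate 3, with the other 6 arrays between -0.09 and 0.08. The summed signal of 7 skeletal fibre markers was 210599 in normal replicate 4, 132157 to 159470 in the other normal pools and 132280 to 152832 in dystrophic pools. The summed signal of 6 hepatocyte markers was 49644 in dystrophic replicate 3, against 1052 to 3233 in normal pools and 1565 to 5838 in the other dystrophic pools. The part of either in the members' values was not tested. In whole tissue, fewer fibres and less RNA per fibre cannot be told apart.

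**Figure D3:**
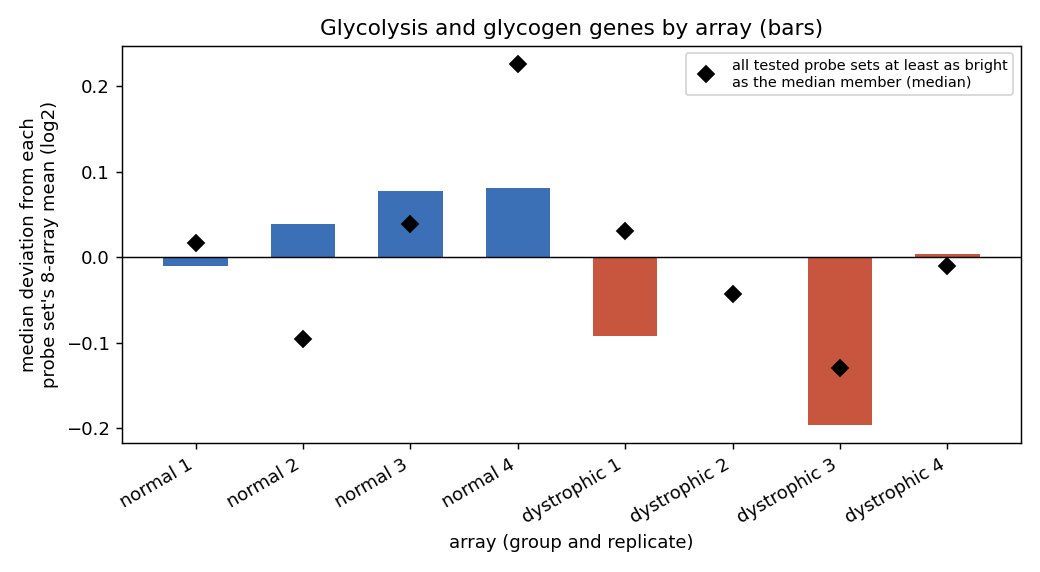
Median log2 deviation of the 29 tested genes from each gene's mean over 8 arrays (bars, blue for normal and red for dystrophic), beside the same for 822 tested probe sets at least as bright as the median member (diamonds). Dystrophic replicate 3 has the lowest bar, at -0.20, and normal replicate 4 the highest diamond, at 0.23.

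The tissue and the genotype were checked against known genes. All 7 skeletal fibre markers (Ckm, Acta1, Mb, Tnnt3, Tnni2, Des and Tcap) were above the filter, with log2 differences of -0.25 to -0.07 and 0 called. Lama2, laminin α2, was lower in dystrophic pools by a log2 difference of -1.60 (limma adjusted p = 0.000891). The median rescaled signal of the 8 arrays lay between 172 and 207. Arrays were grouped into 3 clusters by the signal of poly-A spike-in controls, called spike-in batches here. The number 3 was set for the clustering, and the labels name no batch. The geometric mean of these controls was 543 and 588 in both arrays numbered 1, 354 and 307 in both numbered 3, and 125 to 172 in the 4 numbered 2 or 4. Differences within these batches are given below in the order of replicate 1, replicates 2 and 4, and replicate 3.

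Promoters of 5 members are shown because they stand for the contrasts drawn below, the 2 hexokinases, the 2 phosphoglycerate mutases and Ppp1r3c, a targeting subunit of the phosphatase that activates glycogen synthase. Each is the 250 bases before a RefSeq start site (GRCm38.p6), 5′ to 3′ on the gene's strand, in lower case. Capitals mark any of 6 motifs searched on both strands, namely the TATA box TATAAA, the GC box GGGCGG, the hypoxia response core ACGTG or GCGTG, the myogenic E-box CAGCTG, the palindromic E-box CACGTG, which contains the hypoxia core, and the MEF2 core TAAAAATA.
Hk1: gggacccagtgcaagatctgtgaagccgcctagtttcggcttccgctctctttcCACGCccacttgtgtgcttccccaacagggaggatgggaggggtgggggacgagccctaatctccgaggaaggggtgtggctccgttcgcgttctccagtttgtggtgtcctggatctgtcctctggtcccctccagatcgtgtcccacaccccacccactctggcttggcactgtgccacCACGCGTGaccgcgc
Hk2: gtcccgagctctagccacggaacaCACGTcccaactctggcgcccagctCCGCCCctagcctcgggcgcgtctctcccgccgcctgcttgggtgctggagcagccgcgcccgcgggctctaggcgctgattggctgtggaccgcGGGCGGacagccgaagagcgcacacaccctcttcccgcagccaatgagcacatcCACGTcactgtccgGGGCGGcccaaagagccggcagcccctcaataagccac
Pgam1: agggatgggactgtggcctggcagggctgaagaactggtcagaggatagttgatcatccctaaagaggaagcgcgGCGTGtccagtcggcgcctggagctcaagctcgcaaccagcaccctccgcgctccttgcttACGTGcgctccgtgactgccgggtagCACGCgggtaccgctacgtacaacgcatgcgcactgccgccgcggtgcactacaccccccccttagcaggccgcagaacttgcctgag
Pgam2: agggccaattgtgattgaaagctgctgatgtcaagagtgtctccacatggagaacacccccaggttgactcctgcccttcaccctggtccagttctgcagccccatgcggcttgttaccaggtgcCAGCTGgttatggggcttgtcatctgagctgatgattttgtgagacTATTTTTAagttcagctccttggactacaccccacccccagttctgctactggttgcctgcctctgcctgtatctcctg
Ppp1r3c: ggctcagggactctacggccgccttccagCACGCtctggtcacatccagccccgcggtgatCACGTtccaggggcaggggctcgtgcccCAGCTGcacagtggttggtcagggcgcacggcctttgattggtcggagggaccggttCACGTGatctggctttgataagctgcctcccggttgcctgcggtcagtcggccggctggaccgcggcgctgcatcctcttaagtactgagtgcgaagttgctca
The windows are chr10:62340422-62340671 on the minus strand for Hk1, chr6:82774455-82774704 on the minus strand for Hk2, chr19:41911621-41911870 on the plus strand for Pgam1, chr11:5803797-5804046 on the minus strand for Pgam2 and chr19:36736605-36736854 on the minus strand for Ppp1r3c. RefSeq lists a second start site for Hk1, whose window held none of the 6 motifs.

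Promoters were matched for 29 of the 30 genes, Gapdh included and Gpd1 not. Pgam2 was the 1 gene of these 29 with TAAAAATA, a run found in a promoter of 2.84% of all 27025 genes, and its window also held CAGCTG. The Pgam1 window held 3 hypoxia cores and no CAGCTG. A hypoxia core (ACGTG or GCGTG) occurred in a promoter of 24 of these 29 genes, against 41.5% of all genes, and GGGCGG in 17 of 29, against 35.4%. CAGCTG occurred in 7 of 29, which were Gys1, Pgam2, Phka1, Pkm, Ppp1r3c, Pygm and Ugp2, against 14.7% of all genes. CACGTG occurred in 5 of 29 against 6.86%, and TATAAA in 1 of 29, Pgm1, against 14.3%. The members' promoters were richer in G and C, with a median of 60% against 52.4% over all promoters, and 4 of the 6 motifs contain a CG pair or consist mainly of G and C. These matches describe letters in the window and were not tested against the expression values.

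Hexokinases trap glucose in the cell as glucose 6-phosphate. Hk1, the widely expressed form, had the largest positive difference of the 29. Its signal was 525, 526, 536 and 567 in normal replicates 1 to 4 and 822, 830.1, 687 and 755 in dystrophic replicates 1 to 4. All 4 dystrophic pools lay above all 4 normal pools. Its mean was 538 ± 19.6 in normal and 774 ± 66.7 in dystrophic pools (SD, n = 4), and the log2 difference was 0.51 (limma, SE 0.12, adjusted p = 0.125), with an unadjusted 95% interval of 0.24 to 0.77. The exact two-sided permutation p was 0.0286, the smallest that 4 against 4 allows. A second, dimmer Hk1 probe set read 140.4, 186, 163 and 149 in normal replicates 1 to 4 and 248, 268, 233 and 262 in dystrophic replicates 1 to 4. Here too the groups did not overlap, with a log2 difference of 0.62 (limma, SE 0.15, adjusted p = 0.137). By spike-in batch the difference of the brighter probe set was 0.63, 0.52 and 0.35. The mean of both probe sets passed the test, at 0.56 (limma adjusted p = 0.0496), and no other alternative called Hk1. With a block for the spike-in batch its adjusted p was 0.0865.

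Hk2, the insulin-responsive hexokinase of muscle, had a signal of 5789, 5585, 4857 and 2977 in normal replicates 1 to 4 and 5500, 6327, 4636 and 5862 in dystrophic replicates 1 to 4. The groups overlapped, and normal replicate 4 was far below the other pools. The difference on the log2 scale was 0.25 (limma, SE 0.20, adjusted p = 0.750), and 0.04 without normal replicate 4. Markers of macrophages, fibroblasts and regenerating fibres were higher in dystrophic pools. The summed signals of endothelial, adipocyte and red blood cell markers overlapped between the groups. All 11 tested macrophage markers lay above 0 and 4 were called, with a summed signal of 4871 to 6502 in normal and 9025 to 11129 in dystrophic pools. Of 7 fibroblast markers all lay above 0 and 2 were called, with sums of 27100 to 33463 and 39422 to 50433. All 5 markers of regenerating fibres were called, with sums of 495 to 605 and 3058 to 5672. None of these marker sums was at 0 in any pool, and their part in the Hk1 difference was not tested.

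Phosphofructokinase commits sugar to glycolysis. Its muscle form, Pfkm, had a signal of 14455, 13430, 15845 and 15400 in normal replicates 1 to 4 and 15125, 14849, 13588 and 13942 in dystrophic replicates 1 to 4. The groups overlapped over almost their whole range, and the log2 difference was -0.04 (limma, SE 0.11, adjusted p = 0.952) with an interval of -0.28 to 0.21. Pfkl, the liver form, read 479 to 742 in normal and 491 to 677 in dystrophic pools, a difference (log2) of -0.12 ± 0.18 (SE). Its second tested probe set was at -0.0008 ± 0.23 (SE). Pfkp, the platelet form, read 261 to 294 in normal and 258 to 296 in dystrophic pools, at -0.01 ± 0.13 (SE) with an interval of -0.30 to 0.28. The second tested Pfkp probe set was at 0.10 ± 0.23 (SE), on the other side of 0. Pfkfb3 makes fructose 2,6-bisphosphate, the activator of phosphofructokinase. It read 141, 354, 283 and 421 in normal replicates 1 to 4 and 206, 185, 283 and 218 in dystrophic replicates 1 to 4. Normal pools spread widely, from the lowest to the highest of all 8, and the log2 difference was -0.32 (limma, SE 0.28, adjusted p = 0.781). The difference was 0.50 in the batch of replicate 1 and -0.89 in that of replicates 2 and 4.

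**Figure D4:**
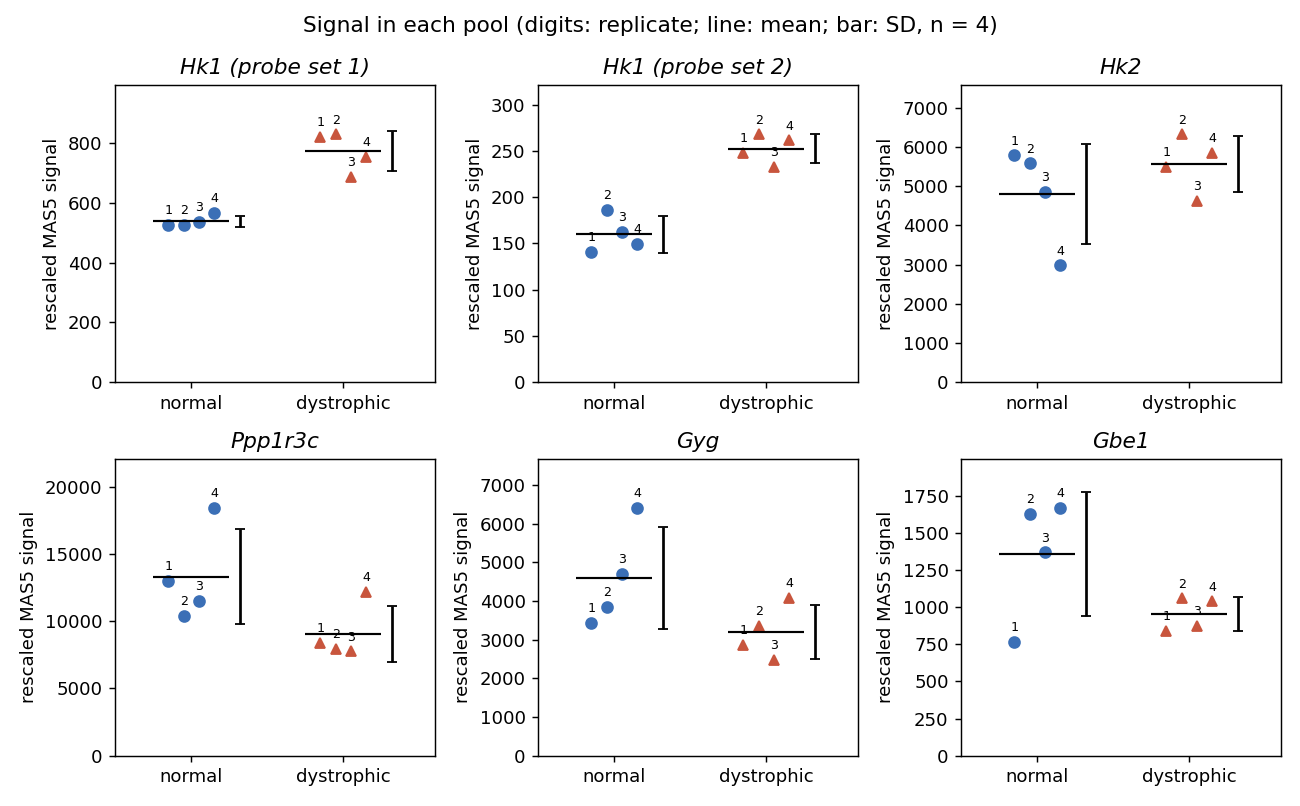
Rescaled MAS5 signal in each pool, with digits for the replicate, a line at the group mean and a bar for the SD (n = 4), for both Hk1 probe sets, Hk2, Ppp1r3c, Gyg and Gbe1. Both Hk1 panels show groups apart, and the other 4 panels show groups that overlap.

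Between aldolase and pyruvate, Aldoa, Tpi1, Pgk1, Pgam2, Eno3 and Pkm were among the brightest probe sets of the array, at percentile 98.7 or above, and Pgam1 and Aldoc were dimmer. Aldoa, the muscle aldolase, had a signal of 25467, 22789, 28080 and 27310 in normal replicates 1 to 4 and 27414, 22939, 23554 and 22611 in dystrophic replicates 1 to 4. Its log2 difference was -0.10 (limma, SE 0.12, adjusted p = 0.850), and its 4 tested probe sets lay between -0.11 and -0.01. Under quantile normalization the representative probe set was at 0.10, on the other side of 0. Aldoc, the brain aldolase, was dim, at 134 to 177 in normal and 96.4 to 206 in dystrophic pools, and its log2 difference was -0.12 ± 0.23 (SE). A second Aldoc probe set, at percentile 1.21 of mean signal, was not tested. Tpi1, triosephosphate isomerase, read 8985 to 9975 in normal and 9579 to 9897 in dystrophic pools, a difference (log2) of 0.05 ± 0.10 (SE) with an interval of -0.17 to 0.28.

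Gapdh, which catalyses the oxidation step of glycolysis, was measured by 3 control probe sets along the transcript. Their differences were -0.12 at the 5′ end, -0.22 in the middle and -0.20 at the 3′ end, with exact two-sided permutation p of 0.486, 0.286 and 0.286. At the middle probe set normal replicate 4 read 32236, against 17960 to 22665 in the other normal pools and 18612 to 21061 in dystrophic pools.

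Pgk1, phosphoglycerate kinase, gave readings that differed between its probe sets. The brightest read 10540, 12331, 11210 and 14986 in normal replicates 1 to 4 and 7369, 9773, 11074 and 10240 in dystrophic replicates 1 to 4. Normal pools were mostly higher, but dystrophic replicate 3 lay within their range. This probe set was at -0.35 (limma, SE 0.16, adjusted p = 0.507), with an unadjusted p of 0.0465. The other 2 tested probe sets were at -0.04 and 0.02, and the mean of the 3 was at -0.13.

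Phosphoglycerate mutase has a muscle form, Pgam2, and a widely expressed form, Pgam1. Pgam2 had a signal of 12824, 10611, 12899 and 13718 in normal replicates 1 to 4 and 11075, 11538, 9097 and 11273 in dystrophic replicates 1 to 4. Dystrophic replicate 3 was the lowest pool, and the other dystrophic pools overlapped normal replicate 2. The log2 difference stood at -0.22 (limma, SE 0.13, adjusted p = 0.639). Pgam1 read 435, 584, 519 and 439.6 in normal replicates 1 to 4 and 380.1, 502, 543 and 601 in dystrophic replicates 1 to 4. Its groups overlapped fully, and the log2 difference was 0.03 (limma, SE 0.17, adjusted p = 0.981). Eno3, the muscle enolase, read 13771, 13198, 16099 and 22498 in normal replicates 1 to 4 and 13767, 14230, 12359 and 13673 in dystrophic replicates 1 to 4. Normal replicate 4 stood well above the other 7 arrays, and the log2 difference of -0.25 (limma, SE 0.16, adjusted p = 0.688) was -0.08 without it. Pkm, the M-type pyruvate kinase, read 5923 to 10362 in normal and 5956 to 8256 in dystrophic pools, a difference (log2) of -0.19 ± 0.18 (SE).

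Lactate dehydrogenase interconverts pyruvate and lactate. Ldha, the form that predominates in fast muscle, had a signal of 9016, 9983, 9627 and 10983 in normal replicates 1 to 4 and 9678, 11254, 10221 and 10948 in dystrophic replicates 1 to 4, a log2 difference of 0.09 (limma, SE 0.12, adjusted p = 0.861). Ldhb, the form of heart and oxidative fibres, had a signal of 12738, 12302, 13667 and 20543 in normal replicates 1 to 4 and 13032, 11171, 10149 and 12478 in dystrophic replicates 1 to 4. Normal replicate 4 was again the highest array, and the other 3 normal pools overlapped the dystrophic pools. Its log2 difference was -0.31 (limma, SE 0.17, adjusted p = 0.597), -0.12 without normal replicate 4, and its 4 tested probe sets lay between -0.39 and -0.25. Fast-fibre markers had 9 of 11 members below 0 with a median of -0.23, against 52.3% of all tested probe sets and 69.2% of the bright ones. Slow-fibre markers had 6 of 8 above 0 with a median of 0.25, and 0 were called in either list. The groups did not overlap for 2 fast-fibre markers, lower, and 2 slow-fibre markers, higher. Summed signals overlapped, at 168088 to 257417 in normal and 162912 to 180748 in dystrophic pools for fast fibres. For slow fibres they were 59680 to 82648 and 75033 to 81522.

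Slc16a1 and Slc16a3 carry lactate across the membrane as MCT1 and MCT4, the second prominent in glycolytic fibres. Slc16a1 read 2956 to 3523 in normal and 2649 to 3532 in dystrophic pools, a difference (log2) of -0.01 ± 0.13 (SE) with an interval of -0.29 to 0.27. Slc16a3 read 601, 638, 271 and 176 in normal replicates 1 to 4 and 315, 526, 319 and 335 in dystrophic replicates 1 to 4. Normal pools formed a high pair and a low pair, above and below every dystrophic pool. This gave a log2 difference of -0.02 (limma, SE 0.36, adjusted p = 0.995), with the widest interval of the 29, -0.80 to 0.76. Without normal replicate 4 it was -0.35 and without normal replicate 2 it was 0.23. Gpd1, the cytosolic glycerol 3-phosphate dehydrogenase that links glycolysis to lipid synthesis and the glycerol phosphate shuttle, read 1243, 1494, 1106 and 657 in normal replicates 1 to 4 and 1056, 616, 811 and 695 in dystrophic replicates 1 to 4. The difference on the log2 scale was -0.46 (limma, SE 0.24, adjusted p = 0.575), and its other tested probe sets were at -0.17 and -0.11.

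Muscle and other isoenzymes were compared directly as the log2 ratio of 2 genes within each array. Of 9 pairs listed, 7 had both genes tested, and the pairs with Eno1 and Pfkfb1 could not be formed. No ratio passed after adjustment over the 7 pairs, and 0 of 7 had an exact permutation p under 0.05. The smallest exact permutation p that 4 against 4 allows is 0.0286. After adjustment over 7 pairs a single pair could therefore not pass alone, even with its groups fully apart. The Hk2 to Hk1 ratio differed between groups by -0.25 (SE 0.25, exact two-sided permutation p = 0.343, adjusted p = 0.800). The Pgam2 to Pgam1 ratio differed between groups by -0.25 (SE 0.24, exact two-sided permutation p = 0.314, adjusted p = 0.800). Both were negative under each of the 16 alternatives run on the pairs. The Ldha to Ldhb ratio had the largest difference, 0.40 (SE 0.16, exact two-sided permutation p = 0.0571, adjusted p = 0.40). By spike-in batch it was 0.07, 0.51 and 0.52, and it was 0.20 without normal replicate 4 and dystrophic replicate 3.

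The other 4 ratios differed between groups by less than their standard errors. Pfkm to Pfkp had the narrowest spread, with a difference of -0.03 (SE 0.07, exact two-sided permutation p = 0.714, adjusted p = 0.971). Pfkm to Pfkl differed by 0.08 (SE 0.23), Aldoa to Aldoc by 0.02 (SE 0.26) and Slc16a3 to Slc16a1 by -0.01 (SE 0.46). Each of these 4 took both signs among the alternatives. Taken one gene at a time, 5 of 7 muscle isoenzymes lay below 0, with a median of -0.04. Of 8 isoenzymes found widely or in other organs, 6 lay below 0, with a median of -0.06. These lists are not fully matched, since Eno3 stands without Eno1 and Pfkfb3 without Pfkfb1. Below 0 were 52.3% of all tested probe sets and 69.2% of those at least as bright as the median member.

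**Figure D5:**
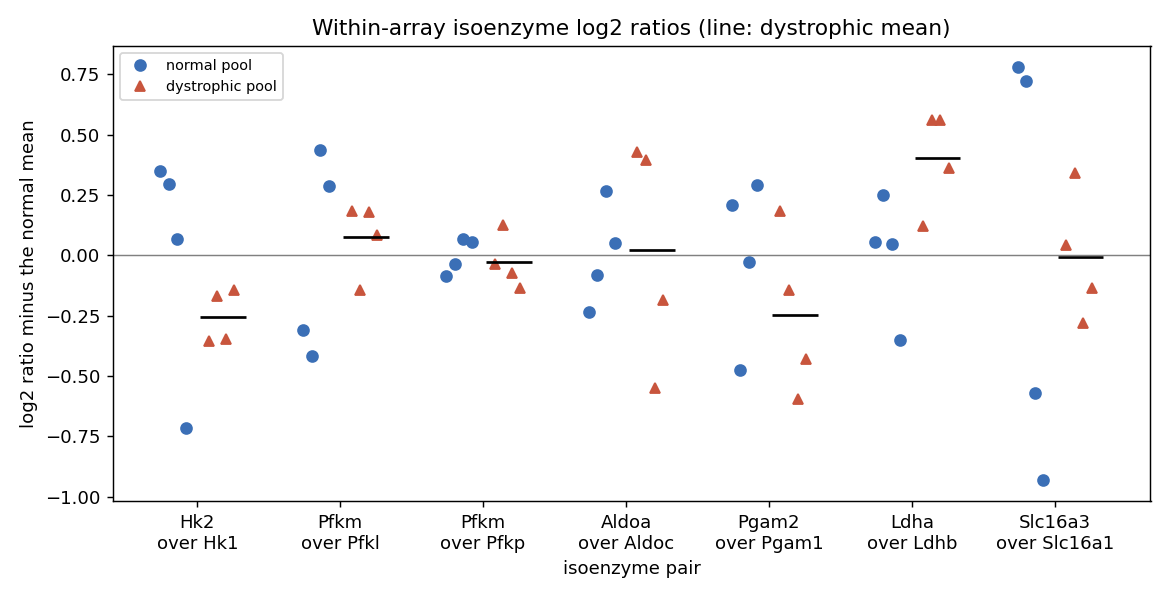
Within-array log2 ratio of 7 isoenzyme pairs in each normal pool (circles) and dystrophic pool (triangles), minus the mean of the normal pools, with a line at the dystrophic mean. The Ldha to Ldhb line is farthest from 0, at 0.40, and the groups overlap for each of the 7 pairs.

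Glycogen genes lay lower as a group, with 9 of 10 below 0, a median log2 difference of -0.23 and 0 called. Below 0 were 52.3% of all tested probe sets and 69.2% of those at least as bright as the median member. Of the 10, 2 had an unadjusted p under 0.05, both lower, against 4.13% of all tested probe sets in that direction. Ppp1r3c, which brings protein phosphatase 1 to glycogen, had the largest negative difference. Its signal was 12993, 10365, 11492 and 18401 in normal replicates 1 to 4 and 8398, 7906, 7747 and 12154 in dystrophic replicates 1 to 4. Of the dystrophic pools 3 lay below all normal pools, and dystrophic replicate 4 lay within the normal range. The mean was 13313 ± 3559 in normal and 9051 ± 2087 in dystrophic pools (SD, n = 4), and the log2 difference was -0.55 (limma, SE 0.20, adjusted p = 0.374). Its second probe set was at -0.66 (limma, SE 0.21, adjusted p = 0.271). By spike-in batch it was -0.63, -0.49 and -0.57. It was -0.31 without normal replicate 4 and dystrophic replicate 3.

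Gyg encodes glycogenin, the protein that primes a glycogen particle. Its signal was 3440, 3844, 4696 and 6398 in normal replicates 1 to 4 and 2871, 3348, 2470 and 4082 in dystrophic replicates 1 to 4. Normal replicate 4 was the highest and dystrophic replicate 3 the lowest array, and the groups overlapped. The log2 difference stood at -0.51 (limma, SE 0.21, adjusted p = 0.458), and -0.22 without those 2 arrays. Gbe1, the branching enzyme, read 766, 1629, 1368 and 1665 in normal replicates 1 to 4 and 837, 1058, 874 and 1038 in dystrophic replicates 1 to 4. Normal replicate 1 was the lowest of all 8 pools and the other 3 normal pools lay above every dystrophic pool. Its log2 difference was -0.45 (limma, SE 0.22, adjusted p = 0.550), and -0.70 without normal replicate 1 (limma adjusted p = 0.0858).

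Gys1, muscle glycogen synthase, was the 1 glycogen gene above 0. It read 2258 to 2924 in normal and 2373 to 3439 in dystrophic pools, a log2 difference of 0.17 (limma, SE 0.15, adjusted p = 0.785), and its second probe set was at 0.24. Ugp2, which makes the UDP-glucose used by the synthase, read 7947 to 11813 in normal and 6825 to 9057 in dystrophic pools, at -0.19 ± 0.15 (SE), and all 5 of its probe sets lay between -0.21 and -0.07. Pgm1, which interconverts glucose 1-phosphate and glucose 6-phosphate, read 3555 to 4155 in normal and 2983 to 3648 in dystrophic pools, at -0.19 ± 0.12 (SE). Pgm2 was dim and steady, at 193 to 215 in normal and 179.7 to 213 in dystrophic pools, and its log2 difference was -0.08 ± 0.15 (SE). The RefSeq table lists each of these 2 symbols as a synonym of the other, and the names used here are the current ones by Entrez identifier.

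Glycogen breakdown runs through phosphorylase and the kinase that activates it. Pygm, muscle phosphorylase, had a signal of 10634, 10813, 11882 and 15279 in normal replicates 1 to 4 and 11680, 10479, 8495 and 11104 in dystrophic replicates 1 to 4. Normal replicate 4 was the highest and dystrophic replicate 3 the lowest, with the other 6 arrays within a narrow band. This gave a log2 difference of -0.21 (limma, SE 0.15, adjusted p = 0.711), and -0.003 without those 2 arrays. Phka1, the muscle regulatory subunit of phosphorylase kinase, read 3319, 3763, 2024 and 1999 in normal replicates 1 to 4 and 3125, 2123, 1644 and 2012 in dystrophic replicates 1 to 4. The groups overlapped, with dystrophic replicate 3 below every normal pool and normal replicate 2 the highest. Its log2 difference was -0.30 (limma, SE 0.24, adjusted p = 0.756), and its 3 probe sets lay between -0.30 and -0.21. Phkg1, the muscle catalytic subunit, read 448 to 841 in normal and 432 to 758 in dystrophic pools, at -0.24 ± 0.22 (SE), and its second probe set was at -0.37 ± 0.19 (SE).

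Agreement between probe sets and batches was partial. Several tested probe sets were available for 14 genes. For 12 of these all lay on one side of 0, and for Pfkp and Pgk1 they did not. Differences within all 3 spike-in batches were below 0 for 9 of 29 genes, Pgk1, Pgam2, Eno3, Phka1, Gyg, Ugp2, Pgm1, Ppp1r3c and Gpd1. Some were close to 0, at -0.0004 for Eno3 and -0.002 for Ugp2 in replicate 1, and -0.02 for Pgk1 in replicate 3. Some dimmer probe sets of Pgk1, Phka1, Ugp2 and Gpd1 had a difference above 0 in at least 1 batch. Within-batch differences were above 0 in all 3 for Hk1 and Ldha. These counts were not set against all tested probe sets. The batches of replicates 1 and 3 each hold 1 array per group and allow no test.

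Other genes around the pathway gave no call either. Of 70 listed genes of glucose uptake, gluconeogenesis, the pyruvate dehydrogenase complex, the pentose phosphate branch and their regulation, 51 had a probe set and 44 were tested. limma called 0 of 44, and 6 had an unadjusted p under 0.05, 2 higher and 4 lower, against 5.60% and 4.13% of all tested probe sets. The median was -0.09, with 28 below 0 and 16 above. Over the brightest probe set of each gene, the 4 smallest p belonged to Pck2, mitochondrial phosphoenolpyruvate carboxykinase, Gpd2, the mitochondrial partner of Gpd1, Pklr, the pyruvate kinase of liver and red cells, and Dlat, of the pyruvate dehydrogenase complex. Gpd2 read 496, 587, 389 and 486 in normal replicates 1 to 4 and 277, 416, 337 and 199.7 in dystrophic replicates 1 to 4, a log2 difference of -0.68 (limma, SE 0.21, adjusted p = 0.271). Pck2 was at 0.60 (limma, SE 0.18, adjusted p = 0.252), Pklr at 0.42 ± 0.16 (SE) and Dlat at -0.40 ± 0.16 (SE). Pck2 read 107 to 175 in normal and 190 to 235 in dystrophic pools, without overlap. Pklr read 146 to 180 in normal and 199 to 259 in dystrophic pools, also without overlap. Among the 44 genes the groups were apart for these 2, higher, and for 1 other, lower. Of all tested probe sets 3.87% were apart in the higher direction. A second tested Pklr probe set was at -0.34. A second Pck2 probe set, too dim to be tested, was at -0.78, also of opposite sign. This dim probe set read 65.6 to 76.4 in normal and 20.5 to 62.7 in dystrophic pools, so that its groups did not overlap either. Mdh1, cytosolic malate dehydrogenase, had dimmer probe sets with smaller p. They were at -0.64 (limma, SE 0.13, adjusted p = 0.0703) and -0.52 (limma, SE 0.13, adjusted p = 0.125), with all dystrophic pools below all normal pools in both. Its brightest probe set was at -0.19 (limma, SE 0.20, adjusted p = 0.822), with overlapping groups. Slc2a4, the insulin-responsive glucose transporter GLUT4, read 4429 to 6615 in normal and 4785 to 6280 in dystrophic pools, a difference (log2) of -0.09 ± 0.15 (SE). Its second probe set read 5157 to 6412 in normal and 3743 to 5075 in dystrophic pools, so that the groups did not overlap there, at -0.29 (limma, SE 0.14, adjusted p = 0.525).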

How the data were processed

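RNA of 8 diaphragm pools, 4 normal and 4 dystrophic, was measured on 1 array each, and groups and replicate numbers were taken from the sample titles. The authors deposited signal intensity values on a linear scale, which per the submitters' processing notes come from MAS5. The MAS5 version is not given in the sources used here, nor are detection calls. The deposited 2% trimmed means were 500.2 except for 400.2 in normal replicate 4, and every array was rescaled to the mean, 487.7. Values were taken as log2(signal + 16), which damps dim probe sets. The 64 controls and the lowest 40% were left out, which left 13575 probe sets. The comparison used limma 3.58.1 (R 4.3.3, intensity trend, Benjamini-Hochberg over all tested probe sets, threshold 0.05), checked on simulated data. A gene was represented by its brightest probe set. Symbols were updated through Entrez identifiers with RefSeq, GRCm38.p6. Isoenzyme ratios were compared by exact permutation over arrays and adjusted over the pairs.

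Every member with a probe set is named, and of other pathway genes the called ones and the 4 with the smallest p. Slc2a4 and Mdh1 were named after their values were seen. The members and lists were chosen with earlier results of these data known. Promoter motifs and the bright comparison set were chosen after the files had been read. Alternatives were an offset of 1 or 64, a shift to the 75th percentile, quantile normalization, values as deposited, no filter, the lowest 60% left out, the replicate number or spike-in batch as a block, each array left out, normal replicate 4 and dystrophic replicate 3 left out together, and averaging the probe sets of a gene. Markers for adipocytes, red blood cells and endothelial cells had 0 called. Their sums were 1479 to 2726 in normal and 1122 to 3116 in dystrophic pools for adipocytes, 302 to 1208 and 476 to 747 for red blood cells, and 2992 to 3591 and 2431 to 3395 for endothelial cells. Plots used matplotlib 3.10.9.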

Additional observations from a re-analysis of the deposited data

Results flagged for a closer look

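In 60 sets of 4 pools (30 genes in 2 groups), values were taken as log2(signal + 16). The gap between 1 pool and the nearest other pool was divided by the group's range. On this log2 scale the quotient passed Dixon's 95% critical value in 2 sets. The readings below are signals on the linear scale, on which the quotients differ. Chance alone flags about 1 in 20 such sets. Slc16a3 in dystrophic replicate 2 read 526, with the nearest dystrophic pool at 335 and the lowest at 315. Pgm2 in normal replicate 4 read 193, with the nearest normal pool at 213 and the highest at 215, a difference of small size.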

How the results depend on the processing

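The count of called members was 0 under each alternative except the mean of a gene's tested probe sets, where it was 1, Hk1. Isoenzyme pairs called numbered 0 under each alternative run on them, and the block fits were not run on the pairs. With so few arrays the exact permutation test could not call a single pair alone under any of these alternatives. These counts of 0 therefore do not show that the ratios are stable. The median log2 difference of the members kept its sign under every alternative. It was -0.10 under quantile normalization, -0.11 on the values as deposited, where normal replicate 4 keeps its lower scale, and -0.066 without normal replicate 4 and dystrophic replicate 3 together. Leaving out 1 array gave -0.23 to -0.11. Over all probe sets, 67 were called, 105 with the replicate block, 114 with a block for the spike-in batch, 31 without normal replicate 4 and dystrophic replicate 3 together, and 25 to 61 with 1 array left out. The count was 34, 29 and 25 without dystrophic replicate 2, 3 or 4. The cause of these shifts was not tested. Same-numbered arrays did not deviate together throughout: the correlation of their deviations from the group means was 0.48, -0.05, 0.15 and 0.13 for replicates 1 to 4, so the numbers were not taken as a pairing, and the replicate block called 0 members. Pfkm, Pfkp, Aldoa, Aldoc, Pgam1, Slc16a1, Slc16a3 and Ugp2 took both signs among the alternatives. With the lowest 60% left out, 25 members were tested. The 4 arrays per group limit the precision of every value, and Slc16a3, Pfkfb3, Phka1 and Gpd1 had the largest standard errors of the members.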

Other observations

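Some genes of glucose production, and Gys2 of liver glycogen synthesis, stood out in a single dystrophic pool. Fbp1, the gluconeogenic fructose bisphosphatase of liver and kidney, read 174, 192, 162 and 187 in normal replicates 1 to 4 and 279, 179.8, 1438 and 208 in dystrophic replicates 1 to 4. Pck1, cytosolic phosphoenolpyruvate carboxykinase, read 61.3, 168, 195 and 102 in normal replicates 1 to 4 and 73.4, 246, 809 and 119.5 in dystrophic replicates 1 to 4. Gys2, the liver glycogen synthase, read 126 in dystrophic replicate 3 and 2.68 to 7.41 in the other 7 pools, and was too dim to be tested. Dystrophic replicate 3 is also the pool with the highest hepatocyte marker sum, 49644. Fbp2, the muscle fructose bisphosphatase, read 249.8, 202, 292 and 297 in normal replicates 1 to 4 and 197, 415, 541 and 367 in dystrophic replicates 1 to 4, highest in the same pool but with dystrophic replicate 2 next to it. limma gave Fbp1 a log2 difference of 0.93 (limma, SE 0.50, adjusted p = 0.597), Pck1 0.72 (limma, SE 0.58, adjusted p = 0.754) and Fbp2 0.45 (limma, SE 0.26, adjusted p = 0.620). The part of liver RNA in these values was not tested.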
